A study of Homo sapiens with 14 samples.

Results

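The GATA factors are zinc finger transcription factors named for the letters of the DNA motif they bind, and the FOG proteins (friends of GATA) are cofactors that bind to a GATA zinc finger instead of to DNA. The 7 genes described here are the GATA factor genes GATA2, GATA3, GATA4, GATA5 and GATA6 and the FOG genes ZFPM1 (FOG1) and ZFPM2 (FOG2), out of 18372 genes measured. They were chosen by name, with the log2 intensities of the 7 lines as the values in view, and each had exactly 1 probe set that carried its symbol alone, so none was selected on its mean signal. ZFPM2 was known from earlier results on these arrays to differ between PC3-ML and PC3-N. Its levels in the comparisons that hold either of these lines are therefore a description, with no test.

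The arrays measured RNA of 7 human prostate cancer cell lines with 2 arrays per line, made from different passages. PC3 and DU-145 are androgen-independent lines grown from metastases. Of PC3 background there were PC3-ML (Clone 1) and PC3-ML (Clone 3), each the progeny of a single PC3-ML cell and called Clone 1 and Clone 3 below, their parent PC3-ML, PC3-N(PDGFRα), which overexpresses the receptor PDGFRα, and the unmodified PC3-N. Of DU-145 background there were DU-145 (PDGFRα), which overexpresses the same receptor, and unmodified DU-145. The labels call Clone 1, Clone 3, PC3-ML and PC3-N(PDGFRα) bone metastatic, and PC3-N, DU-145 (PDGFRα) and DU-145 not. All lines grew in the same serum-containing medium. Each clone stands for 1 cell, and no line carrying an empty vector was analysed here, so the receptor and the handling that introduced it cannot be told apart.

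In vertebrates GATA1, GATA2 and GATA3 act mainly in blood, nerve and skin lineages and GATA4, GATA5 and GATA6 mainly in heart, gut and gonad, although the expression of all of them is wider. In prostate cells GATA2 is known as a pioneer and partner of the androgen receptor, and GATA3 as a factor of luminal epithelial cells. A FOG protein can turn a GATA factor from an activator into a repressor by bringing in the NuRD complex, which removes acetyl groups from histones and remodels nucleosomes, and the CtBP corepressors.

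Only GATA2 and GATA3 passed a test in any comparison below, so the DNA just before their outermost start sites is shown, from RefSeq sequence of build GRCh38.p14. CpG dinucleotides are in capitals. The GATA2 stretch lies at chr3:128493202-128493451 on the minus strand and the GATA3 stretch at chr10:8045083-8045332 on the plus strand, both printed 5′ to 3′.
GATA2: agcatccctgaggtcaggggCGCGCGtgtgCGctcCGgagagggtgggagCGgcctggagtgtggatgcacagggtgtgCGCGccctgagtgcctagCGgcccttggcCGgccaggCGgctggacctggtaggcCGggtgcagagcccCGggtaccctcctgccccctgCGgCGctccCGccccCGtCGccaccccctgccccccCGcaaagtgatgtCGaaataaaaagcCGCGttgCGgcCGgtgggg
GATA3: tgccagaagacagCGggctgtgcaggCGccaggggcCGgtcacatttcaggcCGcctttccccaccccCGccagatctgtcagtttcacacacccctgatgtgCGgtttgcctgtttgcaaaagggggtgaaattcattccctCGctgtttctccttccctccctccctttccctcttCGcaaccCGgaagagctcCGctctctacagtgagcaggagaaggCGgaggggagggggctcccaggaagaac
The GATA2 stretch held 24 CpG dinucleotides at 72.8% G and C, and the GATA3 stretch 11 at 60.8%, against medians of 11 and 58.0% over all promoters of the same length.

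GATA factors are known to bind promoters of GATA genes, so the core letters GATA were searched on both strands (TATC where the other strand carries them) in windows of 300 bases around each annotated start. Neither of the 2 windows of GATA2 held them, nor did the single windows of GATA6 and ZFPM1, while 3 of the 6 windows of GATA3 did. The windows of the other 3 genes were not analysed here. The core stands in 49.7% of the 35116 promoter windows in the table, so a window with or without it is common. The 3 matches are shown with the core in capitals. They lie at chr10:8049665-8049694, 176 bases before a start, at chr10:8054702-8054731, at base 28 of a transcript, and at chr10:8060207-8060236, 239 bases before a start, all on the plus strand.
GATA3 first match: tgtgctatagtccTATCcagtagaaaccct
GATA3 second match: ctggcgccgtcttGATActttcagaaagaa
GATA3 last match: gttgcattgttTATCctgagccaggaactt
A match of letters is no binding site, and no binding was measured.

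ZFPM2, on chromosome 8 (105318438 to 105804539, GRCh38.p14), was the one gene of the family with a wide range between lines. Its intensity was 23.4 and 23.1 on the Clone 1 arrays and 22.6 and 24.2 on those of Clone 3, against 118.7 and 141.7 in PC3-ML. PC3-N(PDGFRα) arrays read 69.8 and 60.5, and PC3-N arrays 36.3 and 31.6. DU-145 (PDGFRα) arrays read 34.5 and 33.7, and DU-145 arrays 37.6 and 40.6. Both clones gave the lowest values, close to the level below which the mean of 5% of all genes lay (21.1), and PC3-ML gave the highest. The values are intensities on a linear scale after the authors' RMA, a procedure that corrects background, aligns arrays and summarises the probes of a probe set.

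The lines therefore stood, from high to low, as PC3-ML, PC3-N(PDGFRα), DU-145, DU-145 (PDGFRα), PC3-N, Clone 3 and Clone 1. PC3-ML and PC3-N(PDGFRα) overlapped neither each other nor any other line. The arrays of DU-145 (PDGFRα) and PC3-N overlapped, as did those of the clones, so neither pair has an order. DU-145 lay above DU-145 (PDGFRα) on both arrays by 0.20 on the log2 scale, a difference that limma, a linear model fitted across all genes, did not call (log2 difference of DU-145 (PDGFRα) over DU-145 −0.20, SE 0.10, adjusted p = 0.456).

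**Figure D1:**
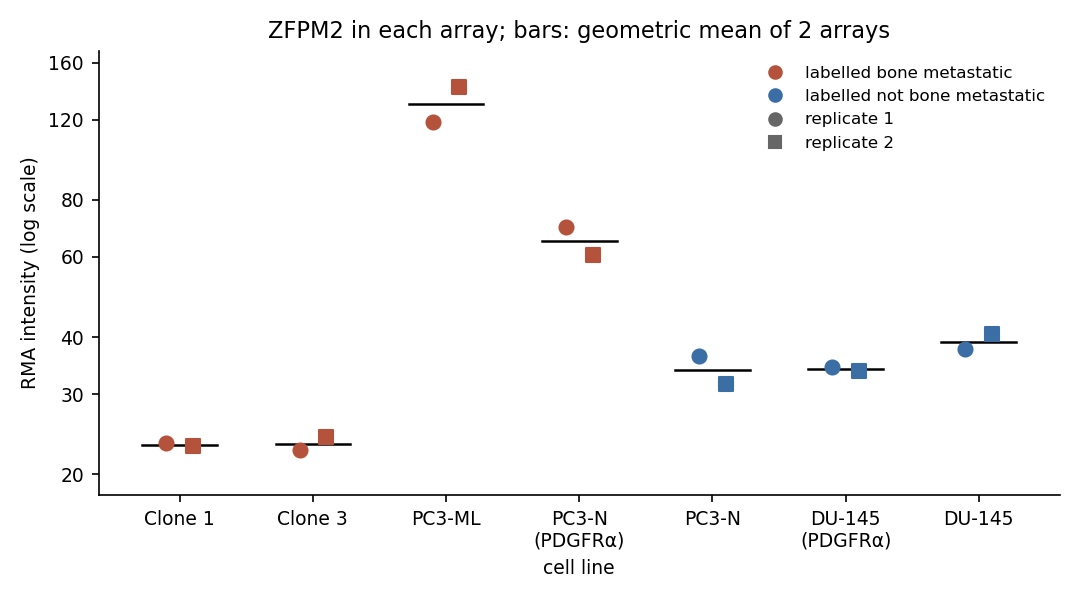
ZFPM2 intensity (y axis, RMA intensity on a log scale) on each of the 14 arrays, by line; circles are replicate 1, squares replicate 2, bars the geometric mean of 2 arrays. PC3-ML stands at 118.7 and 141.7, PC3-N(PDGFRα) at 69.8 and 60.5, and both clones of PC3-ML between 22.6 and 24.2.

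Both single-cell clones had far less ZFPM2 signal than their parent. ZFPM2 averaged 23.2 ± 0.248 in Clone 1 and 23.4 ± 1.13 in Clone 3, against 130.2 ± 16.2 in PC3-ML (SD, n = 2 each). On the log2 scale this was a difference of −2.48 (SE 0.10) for Clone 1 and −2.47 (SE 0.10) for Clone 3. These differences may be low estimates, as the clones lie near the floor of the array. The background of this probe set was not analysed here. The clones themselves differed by −0.01 (Clone 1 over Clone 3, SE 0.10, limma adjusted p = 0.989), with overlapping arrays. As bulk RNA of each culture was measured, less transcript per cell and fewer cells with the transcript cannot be told apart.

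PC3-ML exceeded PC3-N in ZFPM2 by 1.94 on the log2 scale (SE 0.10, 3.83-fold), at 130.2 ± 16.2 against 33.9 ± 3.31. The overexpressing line exceeded its unmodified counterpart by 0.94 (SE 0.10, 1.92-fold), at 65.1 ± 6.55 with the receptor against 33.9 ± 3.31 without. Clone 1 and Clone 3 lay below PC3-N by 0.54 and 0.53 (log2 differences −0.54 and −0.53, SE 0.10 each). The 4 lines labelled bone metastatic thus held the 2 highest and the 2 lowest ZFPM2 levels of the 7, with arrays from 22.6 to 141.7 (median 38.3), against 31.6 to 40.6 (median 35.4) in the 3 lines labelled as not. All comparisons with PC3-N share its 2 arrays, and those with PC3-ML share the PC3-ML arrays.

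The receptor gene PDGFRA served as the check of the overexpressing lines. Its intensity was 817.4 and 850.4 in PC3-N(PDGFRα), against PC3-N arrays at 103.3 and 109.4 (log2 difference 2.97, limma adjusted p = 8.02e-05). DU-145 (PDGFRα) arrays read 129.6 and 92.2, and those of DU-145 28.2 and 25.5 (2.03, limma adjusted p = 0.00454, and 0.47 with only these arrays fitted). ZFPM2 did not follow PDGFRA in every line. Clone 3 had PDGFRA at 130.1 and 125.5 with ZFPM2 at 22.6 and 24.2, and PC3-ML had PDGFRA at 104.1 and 155.5 with ZFPM2 at 118.7 and 141.7. In Clone 1 both genes were low, with PDGFRA at 31.0 and 26.5 and ZFPM2 at 23.4 and 23.1. PDGFRA there had a log2 difference of −2.15 over PC3-ML (limma adjusted p = 0.000138).

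Over the 7 line means, ZFPM2 spanned 2.48 log2 units, a wider span than that of 99.1% of genes. Its difference between PC3-ML and PC3-N was known beforehand, so this rank is a description and no evidence. Of 2174 other genes that spanned at least 1 unit, those with the most similar line means were the small nucleolar RNA genes SNORD32A (Pearson r = 0.941 over 7 lines) and SNORD33 (0.908) and the homeobox gene HOXB9 (0.937). HOXB9 averaged 33.8 ± 1.82 in Clone 1 and 44.0 ± 1.05 in Clone 3, against 130 ± 13.8 in PC3-ML. PC3-N(PDGFRα) cells averaged 96.7 ± 8.11 and PC3-N cells 50.1 ± 6.35, whereas DU-145 (PDGFRα) cells averaged 64.9 ± 0.587 and DU-145 cells 77.7 ± 8.53. These correlations describe 7 points that share lines of common origin, and genes were picked for being the most similar.

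**Figure D2:**
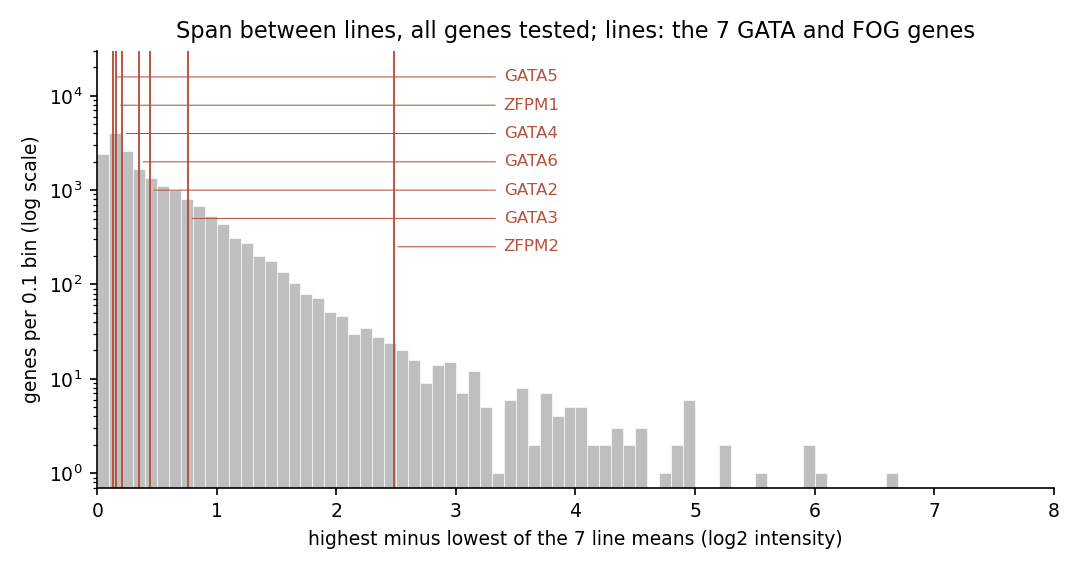
Number of genes (y axis, log scale) by the span between the highest and the lowest of the 7 line means (x axis, log2 intensity). Vertical lines mark the 7 genes, of which ZFPM2 stands at 2.48, GATA3 at 0.76 and the other 5 between 0.13 and 0.44.

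The other 6 genes spanned less than ZFPM2, and 3 of them more than the median gene. The median gene spanned 0.31 log2 units between lines and 11.8% of genes spanned at least 1. GATA3 spanned 0.76, more than 80% of genes, GATA2 0.44 (more than 61.9%) and GATA6 0.35 (more than 54.5%). GATA4 spanned 0.21, ZFPM1 0.16 and GATA5 0.13, less than the median gene. Their intensities ran from 26.6 to 66.2 over all arrays, where the median gene averaged 36.8. Intensities of different probe sets are not comparable as amounts of RNA, and near the floor real differences are compressed.

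**Figure D3:**
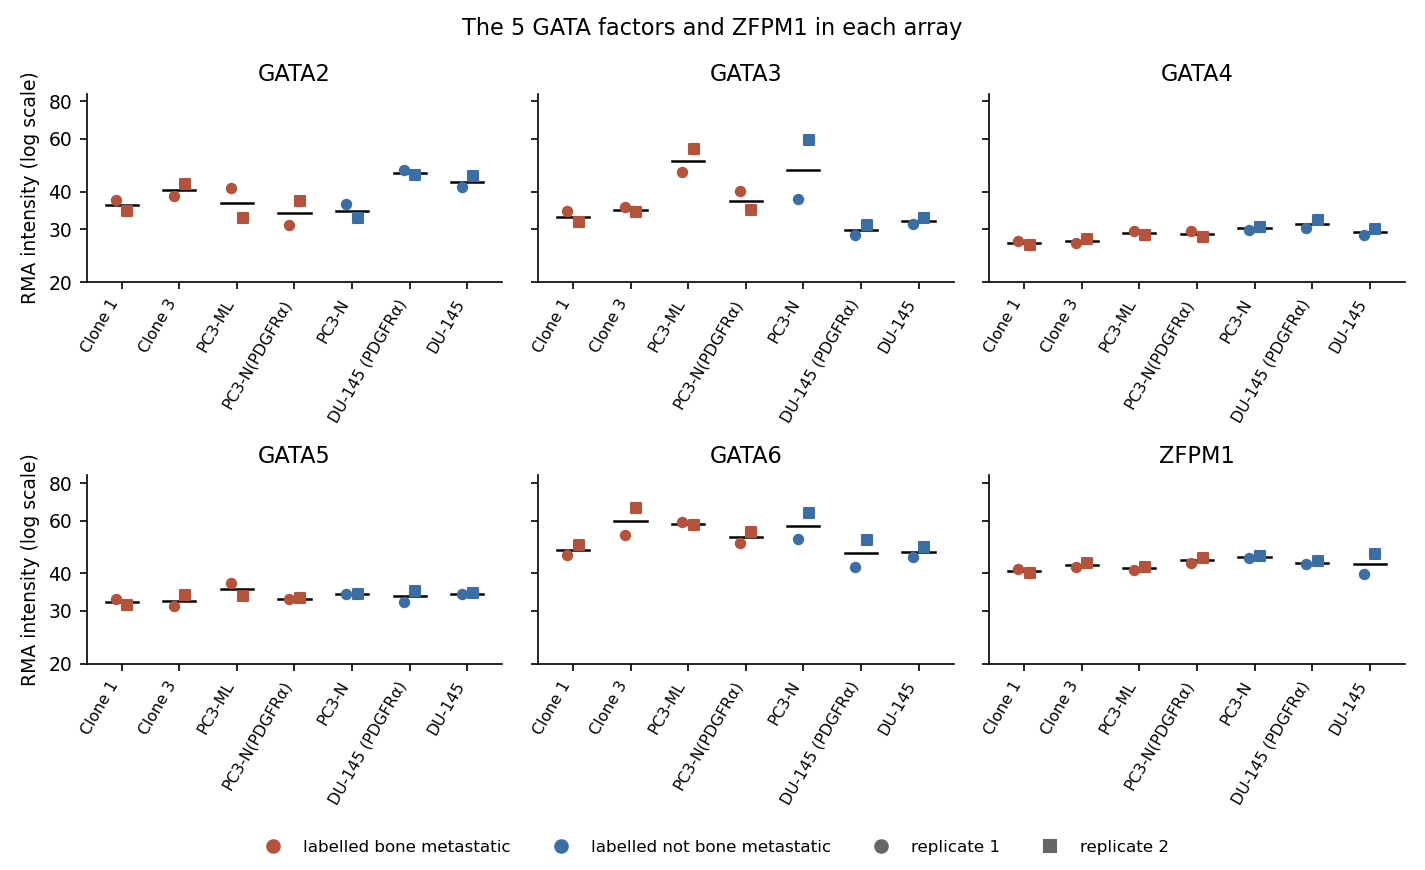
Intensity (y axis, RMA intensity on a log scale) of GATA2, GATA3, GATA4, GATA5, GATA6 and ZFPM1 on each array, by line; circles are replicate 1, squares replicate 2, bars the geometric mean. GATA3 is highest in PC3-ML and PC3-N, where the 2 PC3-N arrays lie apart at 37.8 and 59.4.

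ZFPM1, the cofactor that pairs with GATA1 in red cell and platelet development, lies on chromosome 16 (88451769 to 88537031) and held its level within a narrow band. Its arrays ran from 39.8 to 46.3, with line means between 40.8 ± 0.857 in Clone 1 and 45.5 ± 0.415 in PC3-N. The 2 DU-145 arrays, at 39.8 and 46.3, spanned the whole of it. The lowest adjusted p among the pairs was 0.178, for Clone 1 over PC3-N (log2 difference −0.16, SE 0.07). The FOG gene with the wide range between lines was thus ZFPM2, and ZFPM1 was not called in any of the 11 comparisons.

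GATA3, which guides T helper and luminal epithelial differentiation, lies on chromosome 10 (8045333 to 8075198). It read 34.5 and 31.6 in Clone 1 and 35.5 and 34.2 in Clone 3, against 46.4 and 55.4 in PC3-ML. PC3-N(PDGFRα) arrays read 40.1 and 34.9, and PC3-N arrays 37.8 and 59.4, the widest gap between arrays of a line for this gene. DU-145 (PDGFRα) arrays read 28.8 and 30.9, and DU-145 arrays 31.3 and 32.6. Each neighbouring pair in the order of line means overlapped except DU-145 and DU-145 (PDGFRα). The arrays of both clones lay below those of PC3-ML. GATA3 fell in Clone 1, at 33.0 ± 2.04 against 50.9 ± 6.37 in PC3-ML (log2 difference −0.62, SE 0.17, adjusted p = 0.0435 by limma). In Clone 3 it was 34.9 ± 0.970 against the same parent, and the difference was not called (−0.54, SE 0.17, adjusted p = 0.098). The clones did not differ from each other in a called way (Clone 1 over Clone 3 −0.08, adjusted p = 0.93). The Clone 1 call is marginal: it was lost without any 1 of 12 arrays, all but the 2 of PC3-N, and with quantile normalization or log2(intensity + 16) (adjusted p 0.0533 to 0.215). Without either PC3-N array the Clone 3 difference was called (adjusted p 0.0126 at the lowest).

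Against PC3-N, GATA3 had a log2 difference of −0.34 in PC3-N(PDGFRα) (SE 0.17, adjusted p = 0.458), −0.52 in Clone 1 (adjusted p = 0.0841) and −0.44 in Clone 3 (adjusted p = 0.19). None was called. These values moved with either PC3-N array, which read 37.8 and 59.4. Without replicate 1 the differences were −0.67, −0.85 and −0.77, and those of Clone 1 (adjusted p = 0.00404) and Clone 3 (0.0122) were called by limma. Without PC3-N replicate 2 they were −0.02, −0.20 and −0.12, and none was called. With all arrays kept, the Clone 1 difference was called with a filter on dim genes or an intensity trend (adjusted p at most 0.0379).

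GATA2, the partner of the androgen receptor on chromosome 3 (128479422 to 128493201), was higher in the 2 lines of DU-145 background than in the 5 of PC3 background. Its intensity was 31.0 to 42.3 over the 10 PC3 arrays, against 41.4 to 47.1 over the 4 DU-145 arrays, so the groups overlapped by the highest Clone 3 array (42.3). On the 7 line means the log2 difference of PC3 over DU-145 lines was −0.30 (SE 0.07, adjusted p = 0.0353 by limma). The test treats lines as independent, although both DU-145 lines and all PC3 lines have a common origin each. The call was lost without 4 of the 14 arrays, which were PC3-ML replicate 2, PC3-N(PDGFRα) replicate 2, DU-145 replicate 2 and Clone 3 replicate 1, and among the brighter genes alone (adjusted p 0.0502 to 0.109). None of the 8 pairs of lines compared within a background was called for GATA2. In this comparison 17.6% of all genes were called, 9.60% higher and 8.02% lower in PC3 lines, so 1 of 6 members tested is near the background.

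GATA4 and GATA5, the heart and gut factors on chromosome 8 (11676935 to 11760002) and chromosome 20 (62463497 to 62475995), kept to a narrow range. GATA4 lay between 26.6 and 32.2 on all arrays and GATA5 between 31.2 and 37.3. GATA4 read 27.5 and 26.6 in Clone 1 and 27.0 and 27.9 in Clone 3, the lowest 4 arrays, against 29.9 and 30.6 in PC3-N. The log2 differences were −0.16 for Clone 1 (SE 0.05, adjusted p = 0.0804) and −0.14 for Clone 3 (SE 0.05, adjusted p = 0.174). Neither was called, and GATA5 had no difference beyond 0.14 in size between any 2 lines compared.

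GATA6, which marks endoderm and is active in several adenocarcinomas, lies on chromosome 18 (22169589 to 22202528) and ranged from 42.0 to 66.2. It read 46.0 and 49.6 in Clone 1, 53.7 and 66.2 in Clone 3 and 59.3 and 58.0 in PC3-ML. PC3-N(PDGFRα) had 50.6 and 55, against 52.2 and 63.4 in PC3-N. DU-145 (PDGFRα) had 42.0 and 51.9, against 45.3 and 49.0 in DU-145. Clone 1 lay below both Clone 3 and PC3-ML on both arrays, with log2 differences of −0.32 (SE 0.13, adjusted p = 0.189) and −0.30 (SE 0.13, adjusted p = 0.189). Neither was called. Over the 7 line means GATA6 had a log2 difference of 0.23 for PC3 over DU-145 lines (SE 0.09, adjusted p = 0.142) and GATA3 one of 0.38 (SE 0.18, adjusted p = 0.222).

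**Figure D4:**
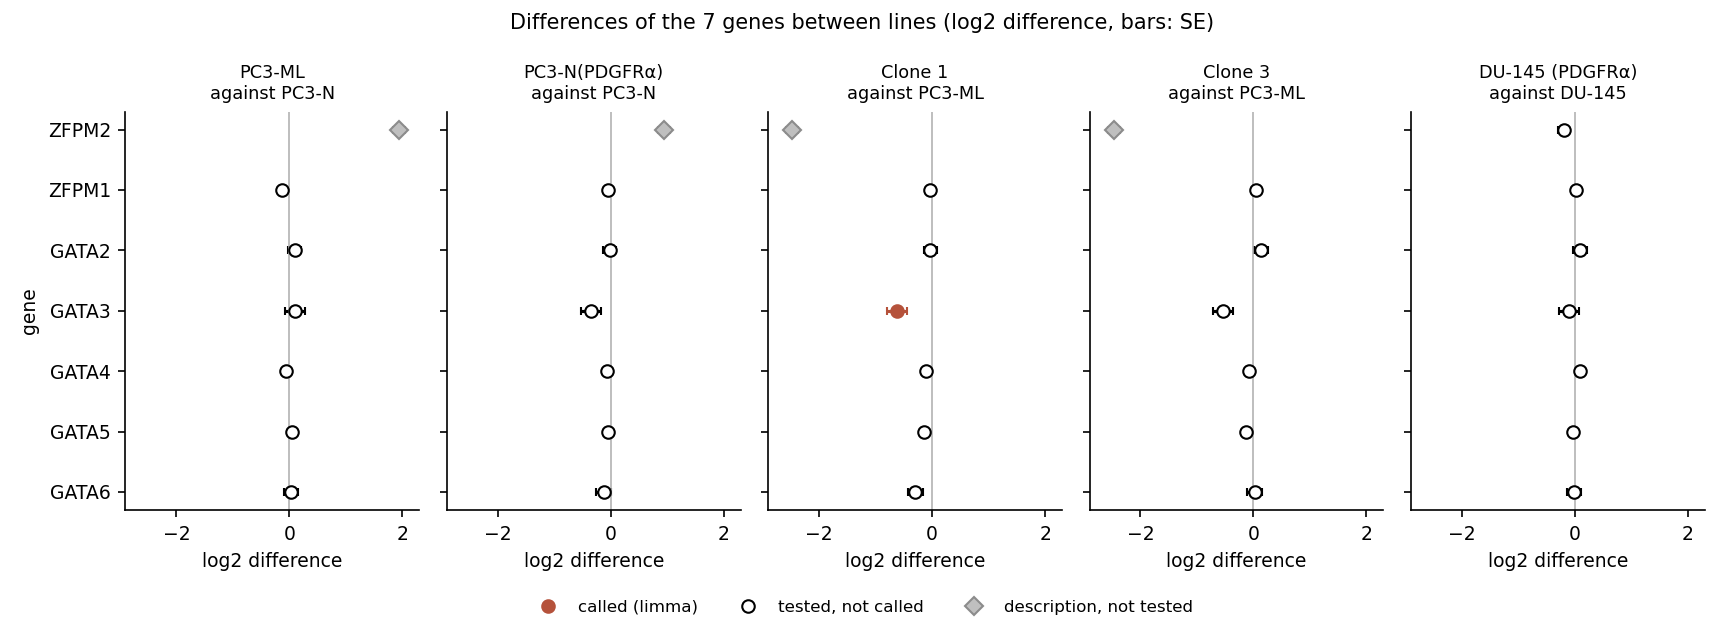
Log2 difference (x axis) with its SE for the 7 genes (rows) in 5 comparisons of lines; filled circles are called by limma, open circles were tested and not called, grey diamonds are descriptions of ZFPM2 with no test. GATA3 in Clone 1 over PC3-ML, at −0.62, is the one called value, and ZFPM2 runs from −2.48 to 1.94.

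Counted over all comparisons, few members were called. PC3-ML over PC3-N gave 0 of the 6 members tested, where limma called 0.348% of all genes, 0.218% higher and 0.131% lower. At an unadjusted p under 0.05 it gave 0 members and 1930 of the 18372 genes. PC3-N(PDGFRα) over PC3-N gave 0 of 6, where 2.20% of all genes were called, 1.52% higher and 0.680% lower (unadjusted 0 members and 2513 genes). DU-145 (PDGFRα) over DU-145 gave 0 of 7, beside 0.310% of all genes, 0.0653% higher and 0.245% lower (unadjusted 0 members and 2386 genes). The difference between these effects of overexpression gave 0 of 6, beside 0.533%, 0.419% higher and 0.114% lower (unadjusted 0 members and 2273 genes).

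In comparisons with a clone, 6 or 7 members are too few to set their share of calls apart from that of all genes. Clone 1 over PC3-ML gave 1 of 6, GATA3, beside 13.8% of all genes, 9.01% higher and 4.77% lower (unadjusted 2 members and 4652 genes). Clone 3 over PC3-ML gave 0 of 6, beside 8.10%, 5.20% higher and 2.90% lower (unadjusted 1 member and 3792 genes). Clone 1 over PC3-N gave 0 of 6, beside 13.1%, 8.02% higher and 5.11% lower (unadjusted 3 members and 4544 genes). Clone 3 over PC3-N gave 0 of 6, beside 6.86%, 4.16% higher and 2.69% lower (unadjusted 2 members and 3557 genes). Clone 1 over Clone 3 gave 0 of 7, beside 10.5%, 5.85% higher and 4.63% lower (unadjusted 1 member and 3766 genes). The median log2 difference of the members tested was −0.12 in Clone 1 over PC3-ML and −0.03 in Clone 3 over PC3-ML, beside −0.016 and −0.011 over all genes.

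The question in the series title, how bone-metastatic lines differ from the others, was put to the line means of the 4 lines against those of the 3. limma called 0 of 6 members and 0.00% of the 18372 genes (1 member and 2250 genes at an unadjusted p under 0.05). The member was GATA4, at 26.6 to 29.5 (median 28) in bone-metastatic lines, against 28.7 to 32.2 (median 30.2) in the others (log2 difference −0.11, SE 0.04, adjusted p = 0.405). The lines are not independent of each other, as both clones come from PC3-ML and each overexpressing line from its unmodified one.

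The corepressors that FOG proteins bring to a GATA factor were measured as a list of 15 genes of the NuRD complex and CtBP. In PC3-ML over PC3-N and in PC3-N(PDGFRα) over PC3-N 0 of the 15 rose and 0 fell by limma, where 0.348% and 2.20% of all genes were called. In Clone 1 over PC3-ML 5 rose and 3 fell, where 9.01% of all genes rose and 4.77% fell (median −0.05, beside −0.016 over all genes). In Clone 3 over PC3-ML 4 rose and 0 fell, where 5.20% of all genes rose and 2.90% fell (0.05, beside −0.011). The histone deacetylase gene HDAC1 rose in both, to 1202 ± 55.3 in Clone 1 and 963.7 ± 110 in Clone 3, against 527.4 ± 74.5 in PC3-ML (log2 differences 1.19, adjusted p = 0.0036, and 0.87, adjusted p = 0.027). HDAC1 averaged 776.4 ± 95.9 in PC3-N and 818.5 ± 94.3 in PC3-N(PDGFRα). Over PC3-N it was called in neither clone (0.64, limma adjusted p = 0.069 in Clone 1, and 0.31, adjusted p = 0.48 in Clone 3). GATAD2B, a NuRD subunit with a GATA-type zinc finger, rose as well, to 258.6 ± 3.5 in Clone 1 and 256.8 ± 10.8 in Clone 3, against 155.2 ± 15.7 in PC3-ML (0.74, adjusted p = 0.00044, and 0.73, adjusted p = 0.0011). Over PC3-N GATAD2B was called in both clones (0.57, limma adjusted p = 0.0016 in Clone 1, and 0.56, adjusted p = 0.0033 in Clone 3). The 3 that fell in Clone 1 over PC3-ML were GATAD2A (−0.4, limma adjusted p = 0.048), MTA2 (−0.38, adjusted p = 0.0095) and MBD2 (−0.36, adjusted p = 0.0025). The Clone 3 count was 1 without PC3-ML replicate 1 or Clone 3 replicate 2 and 2 without Clone 3 replicate 1 or with quantile normalization. The HDAC1 call in Clone 3 was lost without any 1 of these 3 arrays (adjusted p 0.0695 to 0.206).

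Transcription factors and coactivators that act with GATA proteins formed a list of 14, of which 13 were measured. In PC3-ML over PC3-N 0 were called, beside 0.348% of all genes (1 without PC3-ML replicate 2). In PC3-N(PDGFRα) over PC3-N, where 2.20% of all genes were called, 0 rose and 1 fell, the blood factor RUNX1 (log2 difference −0.48, adjusted p = 0.0068, lost without PC3-N(PDGFRα) replicate 1 and with only the arrays compared, adjusted p 0.0563 and 0.115). Without either DU-145 array, or with a filter on dim genes, that count was 2. In Clone 1 over PC3-ML, where 13.8% of all genes were called, 2 rose, the acetyltransferase gene CREBBP (0.57) and the Mediator gene MED1 (0.49), and 1 fell, GATAD1 (−0.32). That count of 3 became 0 without PC3-ML replicate 1 or Clone 1 replicate 2, and 1 without Clone 1 replicate 1. In Clone 3 over PC3-ML, beside 8.10% of all genes, 1 rose, CREBBP (0.61), and the count was 2 without PC3-ML replicate 2 or with the filter. Between backgrounds 3 rose in PC3 lines and 1 fell, where 17.6% of all genes were called. As for GATA2, this test treats lines of a common origin as independent. TRPS1, an atypical GATA-type zinc finger gene that acts as a repressor, averaged 96.9 to 140 in the 5 PC3 lines, against 25.1 ± 1.92 in DU-145 (PDGFRα) and 23.8 ± 0.149 in DU-145 (log2 difference 2.18, SE 0.14, adjusted p = 0.00027). MEF2C, a muscle and blood factor, and the nuclear receptor gene NR2F1 were the others that rose (1.95 and 0.78), and the heart factor NKX2-5 fell (−0.24).

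Of 9 genes of the androgen receptor axis, 5 were measured here. The androgen-regulated kallikrein genes KLK2 and KLK3 lay between 25.7 and 32.2 in all lines. The prostate homeobox gene HOXB13 averaged 101 to 206 over the PC3 lines, against 31.1 ± 1.07 in DU-145 (PDGFRα) and 34.4 ± 7.77 in DU-145 (log2 difference 2.11, SE 0.31, adjusted p = 0.0065). FOXA1, the pioneer factor that binds with GATA2 and the androgen receptor, had a log2 difference of 0.29 in the same comparison (adjusted p = 0.049), a call lost in 13 of 19 alternatives. GATA2 thus ran the other way from HOXB13 between backgrounds. The limit that lines of a background have a common origin holds for these tests too. Among pairs of lines HOXB13 was lower in Clone 1 than in PC3-N (log2 difference −0.99, limma adjusted p = 0.031) and than in Clone 3 (−1.02, limma adjusted p = 0.033). In PC3-ML over PC3-N, in PC3-N(PDGFRα) over PC3-N and in either clone over PC3-ML 0 of the 5 were called. In Clone 3 over PC3-ML the count was 1 without either PC3-N array, and with a filter on dim genes or an intensity trend.

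Known targets of GATA factors in other tissues formed a list of 22 genes, of which 21 were measured. In PC3-ML over PC3-N 0 of 21 were called by limma, where 0.348% of all genes were, so the count is near the background. In PC3-N(PDGFRα) over PC3-N, where 0.680% of all genes fell, 0 rose and 2 fell, the trefoil gene TFF1 (−1.69, adjusted p = 0.031) and the endocytic adaptor gene DAB2 (−0.52, adjusted p = 0.0068). Both calls were lost without PC3-N replicate 1 or PC3-N(PDGFRα) replicate 1, or with only the arrays compared, and that of TFF1 also without PC3-N(PDGFRα) replicate 2 (adjusted p 0.0529 to 0.101 for DAB2 and 0.0532 to 0.187 for TFF1). In Clone 1 over PC3-ML 0 rose and 4 fell, where 9.01% of all genes rose and 4.77% fell (median −0.04, beside −0.016 over all genes). In Clone 3 over PC3-ML 0 rose and 2 fell, where 5.20% rose and 2.90% fell (0.01, beside −0.011). Over PC3-N 0 rose and 6 fell in Clone 1, where 8.02% of all genes rose and 5.11% fell. For Clone 3 over PC3-N 0 rose and 2 fell, beside 4.16% and 2.69%. Clone 1 over Clone 3 gave 0 that rose and 3 that fell, beside 5.85% and 4.63%. The list was chosen with earlier results of these data known.

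DAB2, a GATA6 target in mouse endoderm, fell in both clones, at 61.95 ± 0.486 in Clone 1 and 102 ± 7.19 in Clone 3, against 132 ± 9.30 in PC3-ML (log2 differences −1.09, adjusted p = 3.2e-05, and −0.37, adjusted p = 0.012). The Clone 3 call was lost without PC3-ML replicate 2 or Clone 3 replicate 2, or with only the arrays compared (adjusted p 0.0646 to 0.0861). TFF1 averaged 94.3 ± 21.1 in Clone 1, against 344.5 ± 54.1 in PC3-ML (−1.88, adjusted p = 0.0041), and TFF2 39.99 ± 0.65, against 104.9 ± 21.7 (−1.38, adjusted p = 0.0022). In Clone 3 neither was called, with TFF1 at 675.4 ± 123 (0.97, adjusted p = 0.11) and TFF2 at 92.09 ± 5.23 (−0.17, adjusted p = 0.76). The endoderm factor FOXA2 fell in both clones over PC3-ML (−0.78, adjusted p = 0.0012 in Clone 1, and −0.51, adjusted p = 0.017 in Clone 3). Over PC3-N FOXA2 was called in Clone 1 (−0.6, limma adjusted p = 0.0047) and not in Clone 3 (−0.34, adjusted p = 0.093). The Clone 3 call of FOXA2 was lost without PC3-ML replicate 1 or either Clone 3 array (adjusted p 0.0568 to 0.131). The Clone 3 count of 2 over PC3-ML was lower without any 1 array of PC3-ML or Clone 3. It was 1 with only the arrays compared, 4 with a filter on dim genes or an intensity trend, and 3 without any 1 array of PC3-N or PC3-N(PDGFRα). GATA6 itself was not called in either clone. These 4 genes were lower in Clone 1 than in PC3-ML together with GATA3, whose call there was marginal. The other 17 measured targets were not called in that comparison. In Clone 3 GATA3 had a similar difference over PC3-ML (−0.54, limma adjusted p = 0.098), while TFF1 and TFF2 were not called. Whether GATA factors had a part in any of these differences was not tested.

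**Figure D5:**
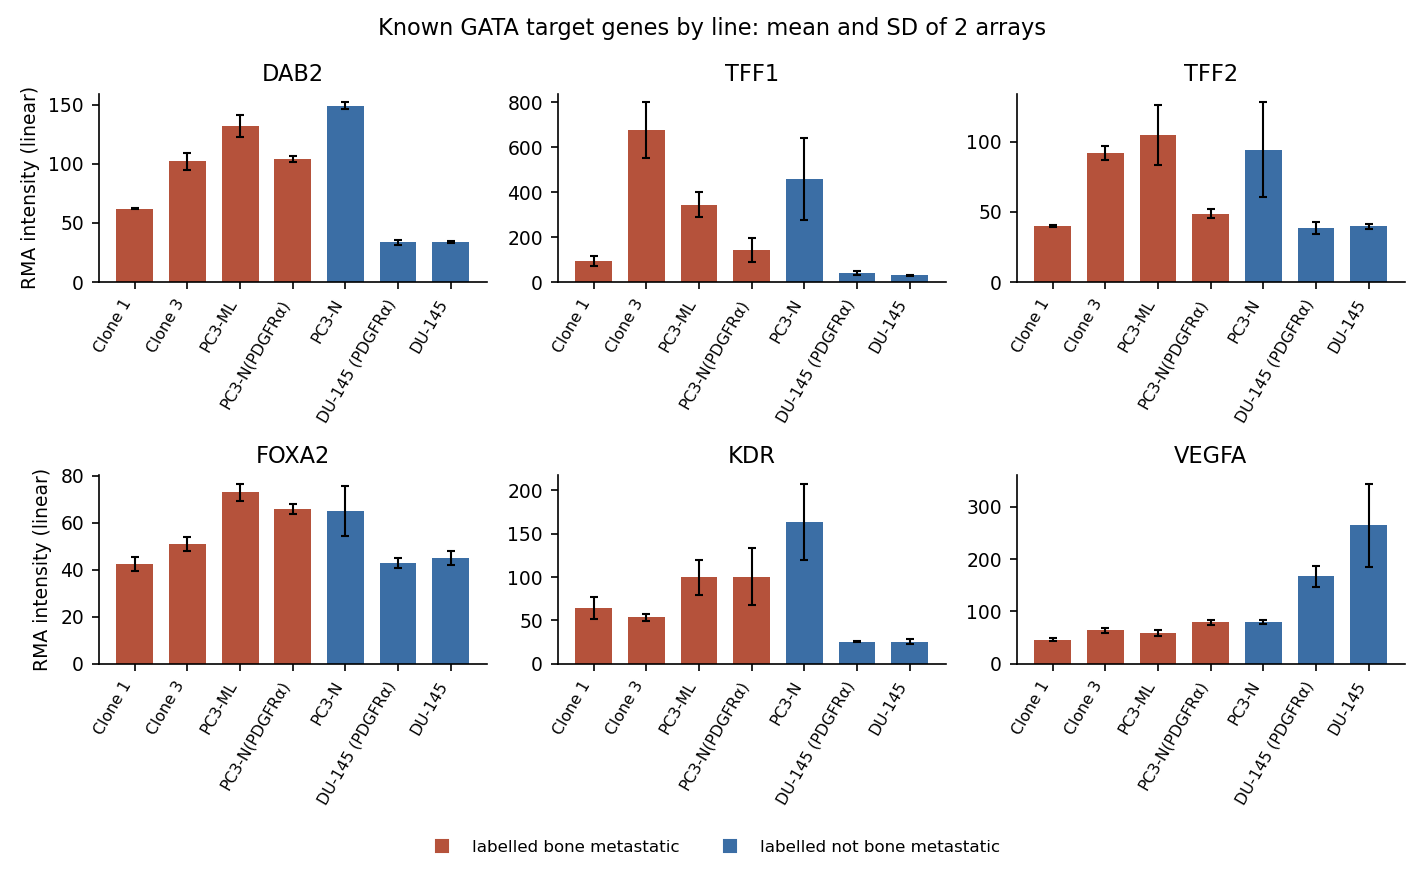
Mean intensity (y axis, linear RMA intensity) of 6 known GATA target genes by line, with the SD of 2 arrays. The 6 were picked from the targets with a called difference. Other targets stayed low in every line, such as NPPA, NPPB, STAR and CYP19A1 (20.7 to 29.5, not shown). DAB2 averages 61.95 in Clone 1 and 102 in Clone 3, against 132 in PC3-ML, and 33.6 and 33.79 in the DU-145 lines.

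Between backgrounds 3 of the 21 targets rose in PC3 lines and 2 fell, where 9.60% of all genes rose and 8.02% fell. Here too the test treats lines of a common origin as independent. The count of 5 was 3 without DU-145 (PDGFRα) replicate 2 or with log2(intensity + 16). DAB2 (1.64, adjusted p = 0.017), TFF1 (2.91, adjusted p = 0.049) and the endothelial receptor gene KDR (1.78, adjusted p = 0.029) were higher in PC3 lines, and the growth factor gene VEGFA was lower (−1.69, adjusted p = 0.0077). IL13, the fifth, had a difference of −0.18. It lay near the floor, with line means from 22.0 in Clone 3 to 26.9 ± 6.94 in DU-145 (PDGFRα), whose arrays lay apart. The test on line means does not take that spread into account. The list named heart and steroid genes as well, and NPPA, NPPB, STAR and CYP19A1 lay between 20.7 and 29.5 in every line.

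Of the epithelial markers, CDH1, the epithelial cadherin gene, averaged 25.9 to 31.7 in the PC3 lines. The others, KRT8, KRT18, KRT19 and EPCAM, averaged 58.6 or more in every line. The lowest was KRT18 in PC3-ML, whose arrays lay apart (58.6 ± 31.5). Their levels differed between lines, as for KRT8 in PC3-ML over PC3-N (log2 difference −1.08, limma adjusted p = 0.031) and EPCAM in Clone 1 over PC3-ML (1.81, limma adjusted p = 4.3e-05). CTNNA1, known to be deleted in PC3 cells, averaged 23.1 to 24.0 in the 5 PC3 lines, against 178.5 ± 57.3 in DU-145 (PDGFRα) and 219.7 ± 88.5 in DU-145. Of the leukocyte, endothelial and fibroblast markers, summed intensities per line ran from 67.1 to 72.5 over 3 leukocyte genes, from 69.2 to 135.1 over 3 endothelial genes and from 123.6 to 133.4 over 4 fibroblast genes. The defining leukocyte marker PTPRC lay between 19.9 and 20.5. The endothelial sum moved with PECAM1, which averaged 44.8 to 90.3 in PC3 lines, against 21.9 ± 1.81 in DU-145 (PDGFRα) and 22.6 ± 0.646 in DU-145, while VWF and CDH5 stayed between 21.9 and 24.4. PECAM1 and KDR were thus both higher in PC3 lines, but their highest means fell in different lines. PECAM1 was highest in Clone 1 (90.3 ± 14.2, with KDR at 64.6 ± 12.5). KDR was highest in PC3-N (163.7 ± 43.4, with PECAM1 at 49.5 ± 7.73). Whether the levels of these genes have a common cause was not tested.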

How the data were processed

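RNA of 7 cell lines had been hybridised as biotin-labelled target to 14 single-colour arrays. The deposited values are intensities that the authors made with RMA, per the submitters' processing notes. Its version is not given in the sources used here. They are linear, judging from the values (18.5 to 8654; array medians 29.9 to 31.6), and were converted to log2 with no pseudocount. Of 28829 probe sets, 19291 carried 1 gene symbol, 1735 several and 7803 none; the highest mean over the 14 arrays stood for each of 682 genes with several, which left 18372 genes and no filter on dim ones. The number of arrays limits the precision.

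limma 3.58.1 in R 4.3.3 fitted 1 mean per line to all arrays (7 residual degrees of freedom), for 8 pairs of lines and the difference between the effects of overexpression. A second fit on the 7 line means compared backgrounds and bone labels. It treats the lines as independent, although lines of a background have a common origin. Calls are at a Benjamini-Hochberg adjusted p under 0.05 over all genes, two-sided. p-values of the pairs measure the spread between passages of 1 culture. The code was tested on simulated data. The members and gene lists were chosen with earlier results of these data known.

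All 7 members were named, with up to 4 called genes of each list per comparison, the 3 genes most similar to a member that spans at least 1 log2 unit, and PDGFRA. GATAD2A, MTA2, MBD2, IL13, KLK2, KLK3, NPPA, NPPB, STAR, CYP19A1 and other genes shown as lowest or highest of a list were chosen after their values were seen. Replicate numbers did not pair the arrays: over 21 pairs of lines the deviations of same-numbered arrays correlated at −0.20 to 0.24.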

Additional observations from a re-analysis of the deposited data

Results flagged for a closer look

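ZFPM2 arrays stood on opposite sides in the 2 backgrounds: both PC3-N(PDGFRα) arrays (69.8 and 60.5) lay above both PC3-N arrays (36.3 and 31.6), and both DU-145 (PDGFRα) arrays (34.5 and 33.7) lay below both DU-145 arrays (37.6 and 40.6). The DU-145 side was not called (log2 difference −0.20, SE 0.10, limma adjusted p = 0.456). The log2 difference between the effects was 1.14 (SE 0.14), and it was not tested, since ZFPM2 was picked with results on PC3-N known. GATA4 arrays had the opposite arrangement, at 29.5 and 28.2 in PC3-N(PDGFRα), against 29.9 and 30.6 in PC3-N, and 30.4 and 32.2 in DU-145 (PDGFRα), against 28.7 and 30.1 in DU-145. Neither side was called (log2 difference −0.07, limma adjusted p = 0.692 in PC3-N, and 0.09, adjusted p = 0.536 in DU-145), nor was the difference between them, −0.16 (limma adjusted p = 0.434). No member had a line mean that stood apart within the PC3 lines or within the bone-metastatic lines by Dixon's criterion (14 groups examined).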

How the results depend on the processing

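Of 863 recomputed log2 differences of the members and listed genes, 787 kept their direction and their side of the threshold, or, for untested ZFPM2 values, moved by less than the spread between replicates. In 51 a call was lost, in 10 one was gained and 2 changed sign, and 13 of the untested values moved by more. Many of these alternatives could not move the difference itself, such as leaving out an array of a line outside a compared pair. The tally is therefore no measure of how stable the differences are. The sign changed for ZFPM2 in Clone 1 over Clone 3, at 0 without Clone 1 replicate 2 and 0.04 without Clone 3 replicate 2 (−0.06 to 0.04 without any 1 array). With log2(intensity + 16), ZFPM2 gave 1.55 in PC3-ML over PC3-N, 0.70 in PC3-N(PDGFRα) over PC3-N, −0.35 and −0.34 in Clone 1 and Clone 3 over PC3-N, −1.89 in each clone over PC3-ML and 0.84 between the effects of overexpression, smaller because the constant compresses low values. Leaving out 1 array, with a lone array assumed to vary like the others, moved it between 1.81 and 2.07 in PC3-ML over PC3-N, between −2.61 and −2.35 in Clone 1 over PC3-ML, and between −2.60 and −2.34 in Clone 3 over PC3-ML. Member counts in Clone 1 over PC3-ML were 0 with quantile normalization or log2(intensity + 16), 2 with only the arrays compared, and 0 to 1 without any 1 array. They were 1 in Clone 1 over PC3-N and in Clone 3 over PC3-ML with a filter on dim genes or an intensity trend. Leaving out 1 array gave 0 to 1 in these 2, in Clone 3 over PC3-N and in PC3 over DU-145 lines, where the filter gave 0. The filter kept 9186 genes and lost GATA4 and GATA5. With a replicate block the count was 1 in Clone 1 over Clone 3 (GATA6, adjusted p = 0.0488 by limma), and no other member count changed; the numbers pair nothing (5 of 21 correlations over 0.1). The causes were not tested. ZFPM2 in the clones lies near the floor, which may limit how large its differences there can read.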
